A study of Caenorhabditis elegans with 2 samples.

Results

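The genes examined here are those of fatty acid and lipid metabolism in Caenorhabditis elegans, and the question put to them was where along them the bZIP protein CEBP-2 was found on chromatin. They were chosen by symbol from the protein-coding genes of the Ensembl annotation of WBcel235: every gene named fat-, elo-, acs-, acdh-, ech-, lipl- or acl- with a number, plus sbp-1, pod-2, fasn-1, mdt-15, nhr-49, nhr-80 and dgat-2. That gave 89 genes of 19973 on the nuclear chromosomes: 22 acs, 13 acdh, 13 acl, 10 ech, 9 elo, 8 lipl and 7 fat genes, and the 7 named singly. A gene's window ran from 2000 bp before its 5' end to 500 bp past it, and a peak counted for the gene when its summit fell there.

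The data are ChIP-seq peak lists from 1 group of 2 biological replicates of whole young adult worms, aged 64 h. Synchrony came from hatching bleached embryos into starvation as L1 larvae. The strain, OP331, has the genotype wgIs331(C48E7.11::TY1 EGFP 3xFLAG), unc-119(+), unc-119(ed3): a cebp-2 transgene that carries green fluorescent protein and epitope tags, with a rescuing copy of unc-119 in an unc-119 mutant background, in both replicates alike. The antibody was against green fluorescent protein, so what was precipitated is the tagged transgene product, from all tissues mixed. No untagged strain or input was analysed here, the files hold peaks without read counts, and depth is therefore unknown.

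Fat in C. elegans is stored and turned over mainly in the intestine. Acetyl-CoA carboxylase and fatty acid synthase build saturated chains, elongases lengthen them, and desaturases introduce the double bonds of oleic acid and the polyunsaturated acids. Acyl-CoA synthetases activate fatty acids for use. Acyl-CoA dehydrogenases and enoyl-CoA hydratases carry out successive steps of beta-oxidation, acyltransferases build membrane and storage lipids, and lysosomal lipases release fatty acids. The SREBP homologue SBP-1, the Mediator subunit MDT-15 and the nuclear receptors NHR-49 and NHR-80 are regulators of many of these genes. Proteins of the C/EBP family govern fat cell differentiation in mammals.

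The authors' thresholded list for the pair of replicates, named the main list here, placed a peak in the window of 3 of the 89 genes (3.37%). They were fat-1, which makes omega-3 fatty acids from omega-6 acids, lipl-2, a lipase of the lysosomal family, and ech-1.2, an orthologue of the alpha subunit of the mitochondrial trifunctional protein of beta-oxidation. By the same rule 828 of all 19973 protein-coding genes (4.15%) had a peak. The conservative list held the same 3 genes (3.37%), against 3.26% of all genes. The list of replicate 1 alone held ech-1.2 and fat-1 (2 genes, 2.25%, against 0.866% of all genes), and that of replicate 2 alone held all 3 (3.37%, against 1.31%). No elo, acs, acdh or acl gene, and none of the 7 singly named genes, had a thresholded peak of any of the 4 lists in its window. With 1 group there is no test between conditions, and genes are not replicates, so these shares are descriptions.

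The sequences at the summits of the peaks at fat-1, lipl-2 and 2 acyl-CoA synthetase genes, acs-1 and acs-20, are shown because main-list peaks lay there, on coding bases at some and on non-coding bases at others. Each is the 101 bp centred on the summit, on the sense strand of the named gene, in build ce11 (WBcel235), with coding bases in capitals:
fat-1 upstream (chrIV:13314339-13314439): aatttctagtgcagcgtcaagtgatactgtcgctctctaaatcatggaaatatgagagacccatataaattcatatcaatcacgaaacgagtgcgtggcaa
fat-1 first coding exon (chrIV:13315757-13315857): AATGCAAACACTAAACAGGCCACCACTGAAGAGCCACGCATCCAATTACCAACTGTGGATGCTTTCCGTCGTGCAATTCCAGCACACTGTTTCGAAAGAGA
fat-1 last coding exon (chrIV:13318469-13318569): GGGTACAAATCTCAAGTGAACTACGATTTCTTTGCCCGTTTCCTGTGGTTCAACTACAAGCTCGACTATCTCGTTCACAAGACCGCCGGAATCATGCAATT
lipl-2 upstream (chrV:9789964-9790064): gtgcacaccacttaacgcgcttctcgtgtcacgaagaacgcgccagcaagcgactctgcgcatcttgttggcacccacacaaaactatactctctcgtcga
acs-1 intron (chrV:6525526-6525626): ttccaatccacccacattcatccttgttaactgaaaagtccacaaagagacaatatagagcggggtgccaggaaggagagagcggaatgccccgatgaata
acs-20 intron (chrIV:12396886-12396986): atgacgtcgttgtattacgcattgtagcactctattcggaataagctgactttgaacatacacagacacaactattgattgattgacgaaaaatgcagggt
acs-20 coding exon (chrIV:12393606-12393706): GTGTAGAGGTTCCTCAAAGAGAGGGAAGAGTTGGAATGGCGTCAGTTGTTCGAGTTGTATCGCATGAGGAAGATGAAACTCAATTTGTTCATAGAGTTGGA

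The fat-1 peaks form a row along the whole gene. In the first coding exon (chrIV:13315672-13315941, summit 163 bp downstream of the 5' end) the signal value, the peak caller's own measure of enrichment in arbitrary units, was 109 for both replicates together. It was 40.0 in replicate 1 and 58.9 in replicate 2, and the peak stood in the thresholded list of each. The upstream peak (chrIV:13314254-13314523, summit at −1255 bp, outside protein-coding genes) had 89.1 for both replicates together, 33.5 in replicate 1 and 52.7 in replicate 2. It reached the main and conservative lists and neither replicate's own list. Beyond the window, a peak in the last coding exon (chrIV:13318384-13318653, +2875 bp) had 75.6, with 38.1 in replicate 1 and 47.0 in replicate 2. The highest of the row lay 231 bp past the annotated 3' end of fat-1 (chrIV:13318907-13319176, +3398 bp), with 123. The summit windows of the coding peaks held 47.5% and 45.5% G+C and the upstream one 39.6%. No other protein-coding 5' end was nearer than that of fat-1 to any of these 4 summits.

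The neighbourhood of fat-1 is dense in peaks. Within 100 kb of its 5' end there were 38 summits of the main list, and 37 for fat-2, which lies close by, against a median of 2.00 for all genes and a 95th percentile of 7.0. acl-13 and acs-20 had 22 each and fat-6 had 14, all on chromosome IV. Whether the density of that stretch has a part in the fat-1 peaks was not tested.

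The remaining desaturases had lower values. fat-2, which turns oleic acid into linoleic acid, had 59.3 at +248 bp in its coding sequence, with 27.7 in replicate 1 and no replicate 2 peak at that place. The stearoyl-CoA desaturase gene fat-6 had 53.7 in an intron at +172 bp (24.8 in replicate 1, 30.3 in replicate 2). Its close paralogue fat-7 had 18.9 at +114 bp, with 17.8 in replicate 1 and none in replicate 2, and the palmitoyl-CoA desaturase gene fat-5 had 28.6 at −245 bp. fat-2 and fat-6 lay above the upper quartile of all genes (46.3), fat-5 near the lower quartile (28.4) and fat-7 below it. fat-4 (35.4) and fat-3 (29.7), which act in the making of long polyunsaturated acids, lay between the quartiles. In 4 of the 7 fat genes the highest peak lay downstream of the 5' end, against 16 of 80 lipid genes and 23.4% of all genes. The 9 elongase genes gave 0 of 9 there, and their highest value was 53.9 at elo-3.

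**Figure D1:**
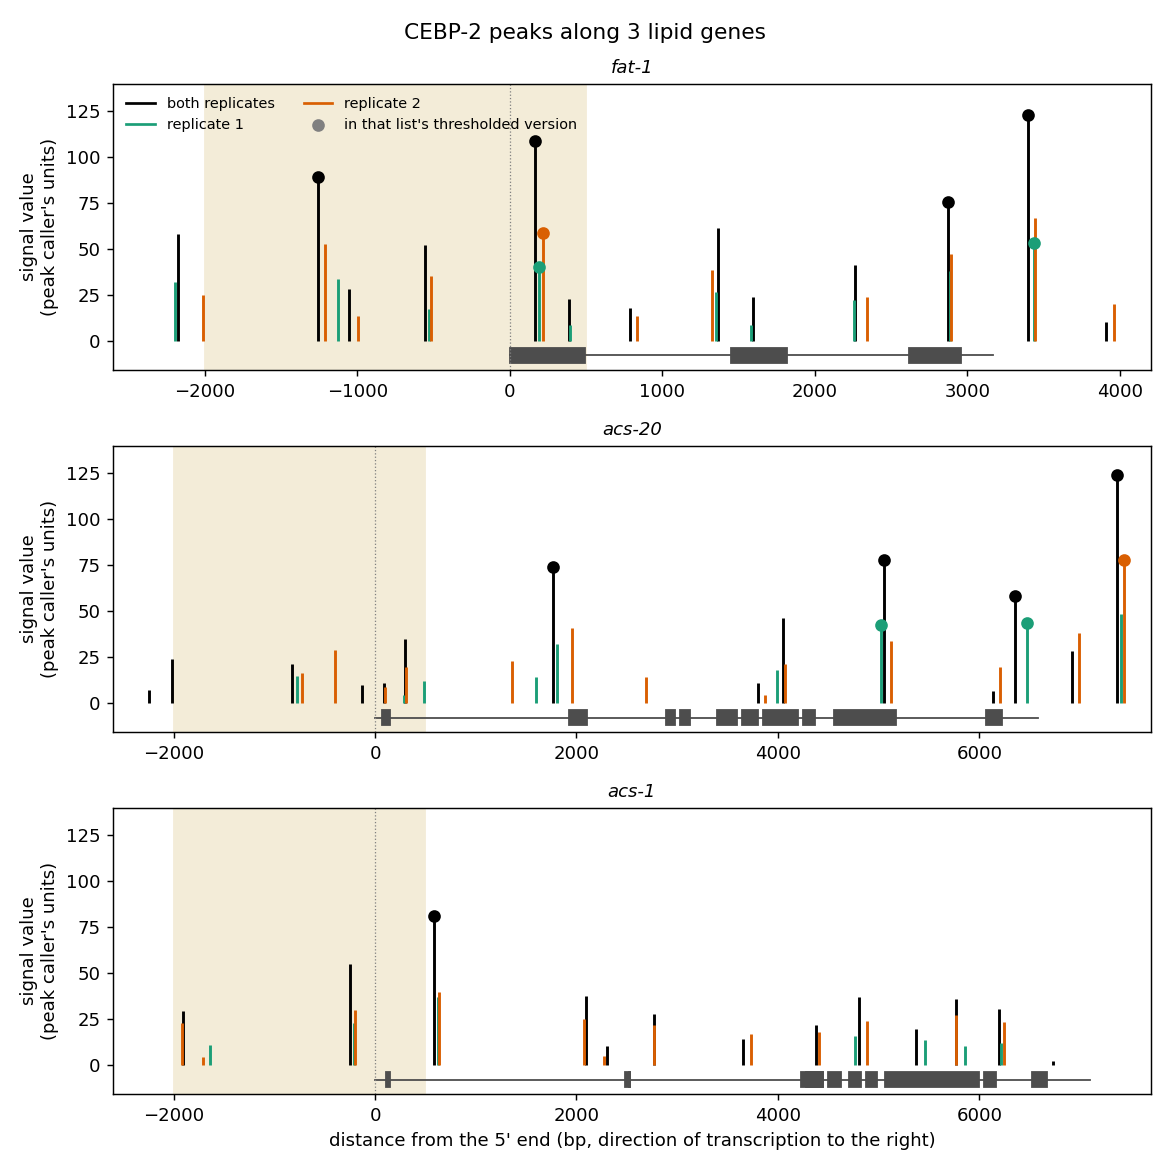
Signal values (vertical axis, peak caller's units) of ranked peaks along fat-1, acs-20 and acs-1 against distance from the 5' end (horizontal axis, bp), for both replicates together and each replicate, with replicate lines shifted slightly to the right. Dots mark peaks of the thresholded list, the shading marks the window, and boxes mark coding exons: fat-1 has dots at −1255, 163, 2875 and 3398 bp, whereas the dots of acs-1 and acs-20 all lie beyond the window.

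At ech-1.2 the peak was the highest of any of the 89 genes, with 153 for both replicates together, 56.4 in replicate 1 and 96.7 in replicate 2, and it was in every thresholded list. It placed the gene at the 99.7th percentile of all genes with a peak, fat-1 at the 99.0th and lipl-2 at the 97.9th. Its summit (peak on chromosome I, 6212689 to 6212958) lay at −1669 bp, inside an intron of fars-1, the gene of a phenylalanyl-tRNA synthetase subunit. The peak also overlapped the small nucleolar RNA gene T08B2.13, the non-coding RNA gene T08B2.14 and a pseudogene. The nearest protein-coding 5' end was that of the mitochondrial ribosomal protein gene mrpl-23, at 939 bp. The peak of lipl-2 (chrV:9789879-9790148, −1553 bp) lay outside protein-coding genes over the non-coding RNA gene F46B6.15, and the 5' end of ztf-7 was nearest, at 307 bp. Its value was 84.9, with 37.7 in replicate 1 and 58.6 in replicate 2. Only replicate 2 held it in its own thresholded list, with a score of 899, against 542 in replicate 1 and a lowest score of 830 in any thresholded list. When a peak was given only to the gene with the nearest 5' end, fat-1 alone of the 3 kept its main-list peak (1 of 89 lipid genes, against 3.10% of all genes). Without peaks at tRNA, snoRNA or snRNA genes ech-1.2 was lost (2 of 89, against 3.54% of all genes). Without the peaks of the peak-dense 3.5 Mb of chromosome IV from 12 Mb onward fat-1 was lost (2 of 89, against 3.71%). Both losses follow from the exclusions themselves. The genes of that stretch stayed in both totals, although none of their peaks there could count.

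Just outside the threshold stood acdh-12 and ech-2. acdh-12, an acyl-CoA dehydrogenase gene, had a value of 68.0 and a score of 807, with 24.2 in replicate 1 and 48.6 in replicate 2. That peak lay in a coding exon of the neighbouring gene E04F6.6, and the nearest 5' end was that of maoc-1 at 1360 bp. ech-2, an enoyl-CoA hydratase gene, had 60.5 and a score of 803, with 32.9 in replicate 1 and 28.5 in replicate 2, at −1070 bp and 1021 bp from let-92. The acyltransferase gene acl-8 had 68.1 and a score of 727 at −381 bp, where its own 5' end was nearest, with 18.4 in replicate 1 and 42.9 in replicate 2. acl-8 and acl-9 (58.6, in an intron at +118 bp) are related genes that act on phosphatidylinositol.

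The threshold was then relaxed to a global irreproducible discovery rate (IDR) of 0.05 or lower. That rate is low for peaks ranked consistently high. A ranked peak at that rate lay in the window of 16 of 89 lipid genes (18.0%), against 2483 of all genes (12.4%). The 13 added genes were fat-2, fat-6, elo-3, acs-1, acs-2, acs-4, acs-19, acdh-10, acdh-12, ech-2, acl-8, acl-9 and nhr-80. The passing peak of fat-2 had 27.7 in replicate 1 and no replicate 2 peak at that place, so passing does not mean a peak in each replicate. acs-2, an acyl-CoA synthetase that feeds mitochondrial beta-oxidation and is known as a target of NHR-49, had 59.1 at −1911 bp, with 20.2 in replicate 1 and 39.1 in replicate 2. acs-4 had 61.3 in an intron at +436 bp, with 24.1 in replicate 1 and 34.9 in replicate 2. acs-7 had 59.5 at −1578 bp and did not reach that rate. The highest peak of acdh-10 (57.2 at −1003 bp) lay in a coding exon of another member, acdh-7, and did not reach that rate. It was the acdh-10 peak of 56.3 at −397 bp that did. Likewise the highest peak of acs-19 (57.6 at −5 bp) did not reach that rate, and its peak of 52.8 at −1875 bp did. This relaxed rule was added with the data in view.

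The regulators and the first enzymes of synthesis showed no thresholded peak in their windows. mdt-15 had the highest value of the 7, 65.0 at −1151 bp (23.2 in replicate 1, 38.3 in replicate 2), but its score was 518, the 5' end of R12B2.6 was nearer at 749 bp, and the peak sequence matched one other place in the genome, at ddx-23, with 92.0% identity over 138 bp. nhr-80 had 54.3 in a coding exon of H10E21.1 (22.1 in replicate 1, 27.4 in replicate 2). nhr-49 had 51.0 at −411 bp, with 38.3 in replicate 2 and no peak in replicate 1. The acetyl-CoA carboxylase gene pod-2 had 34.5 at −1388 bp and the diacylglycerol acyltransferase gene dgat-2 had 31.5 at −1286 bp, and each was found in replicate 2 only. Replicate 2 had 28.6 at that peak of pod-2, and 22.4 at its highest peak in the window of dgat-2. Replicate 2 also held a thresholded peak of 56.5 in a coding exon of pod-2, 13580 bp into the gene, with 16.3 in replicate 1. sbp-1 had 17.3 at +34 bp, and neither replicate had a peak at that place. Elsewhere in the sbp-1 window the highest value was 19.1 in replicate 1 and 29.9 in replicate 2. The fatty acid synthase gene fasn-1 had no peak in its window in the ranked list used here, in either replicate's ranked list or in any thresholded list.

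Across the whole set the values were close to those of other genes. The highest signal value per gene had a median of 36.2 over the 80 lipid genes with a ranked peak (range 13.0 at acs-10 to 153 at ech-1.2), against 36.4 over 17019 of all genes. The quartiles were 29.6 and 49.5, against 28.4 and 46.3, and 33.8% of the lipid genes lay above the upper quartile of all genes. The ech genes had the highest family median among the 7 families, 42.7, and the acl genes the lowest, with quartiles of 27.1 and 46.8. The fat (35.4), elo (33.0), acs (38.2), acdh (35.3) and lipl (35.9) medians lay between. The full range of values, lowest to highest, within each family was wider than the range of the family medians. No ranked peak lay in the window of 9 genes (10.1%, against 14.8% of all genes): acdh-6, acdh-8, acl-12, acs-21, acs-24, ech-1.1, ech-8, ech-9 and fasn-1. Of these acs-24, ech-1.1, ech-8, ech-9 and fasn-1 had none in either replicate's ranked list.

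**Figure D2:**
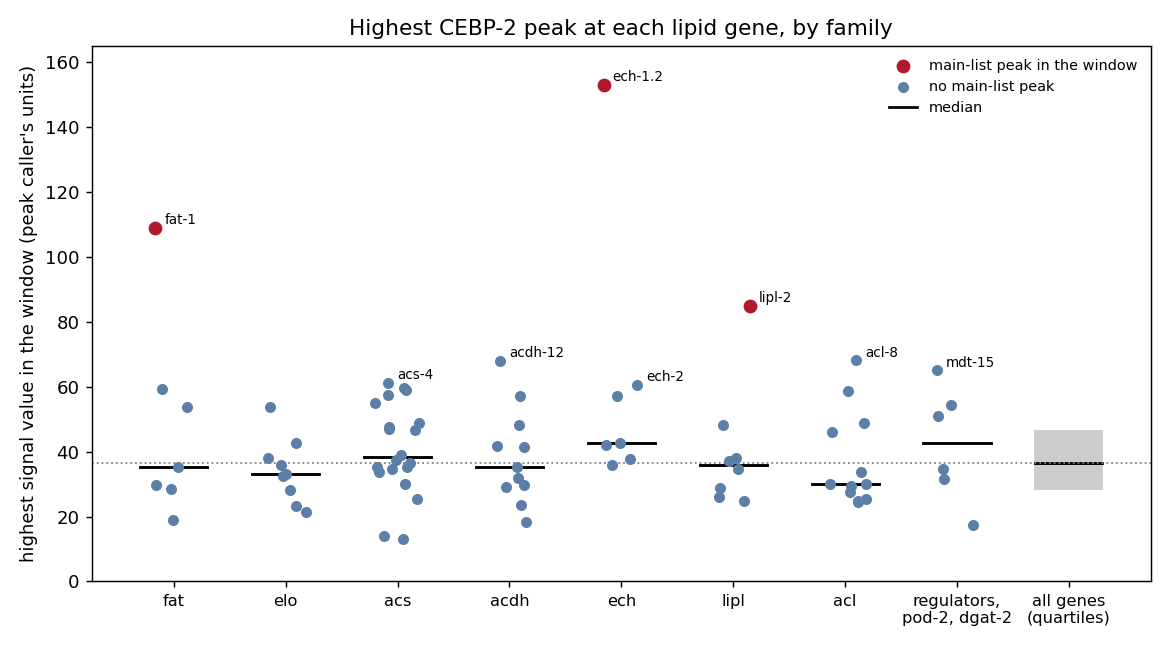
Highest signal value in the window of each of the 80 lipid genes with a ranked peak (vertical axis, peak caller's units), by gene family, with the median of each family as a line and the quartiles of all protein-coding genes in grey. The red points ech-1.2, fat-1 and lipl-2 carry a main-list peak, and most other points sit around the all-gene median of 36.4.

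The replicates named the same 3 genes at the top and otherwise ordered the set differently. Of the 10 genes of highest signal in each replicate, 3 were shared: ech-1.2, fat-1 and lipl-2. Replicate 1 added acl-9, acl-13, ech-2, ech-4, elo-3, fat-2 and lipl-5, and replicate 2 added acdh-10, acdh-12, acdh-13, acl-8, acs-7, acs-19 and ech-6. Over the 61 genes with a peak in both, Spearman's rho was 0.54, against 0.36 over 12437 of all genes, as a description of genes in the same pair of libraries. Replicate 2 had the higher value in 54 of the 61. The medians were 18.0 in replicate 1 (70 genes) and 26.6 in replicate 2 (75 genes), against 17.4 and 24.9 over all genes.

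**Figure D3:**
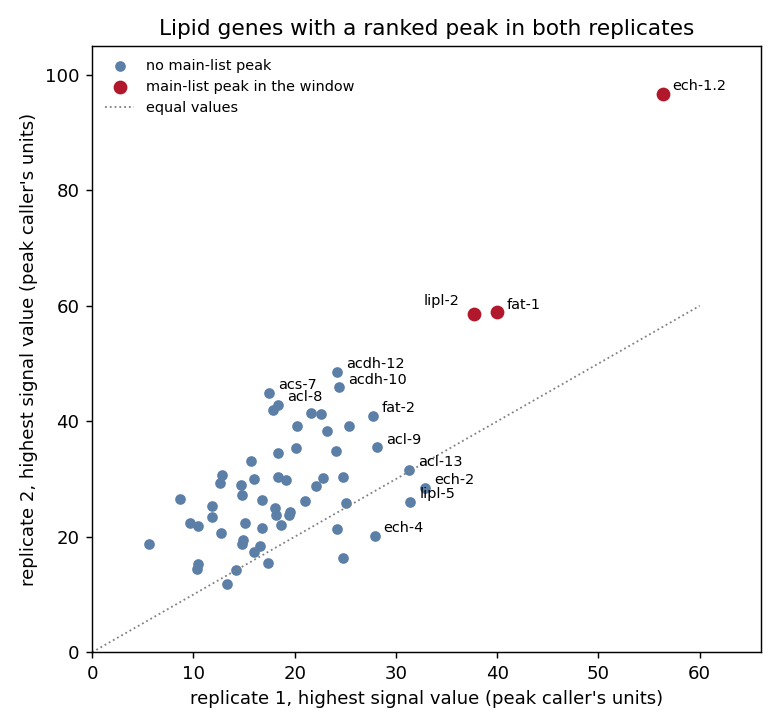
Highest signal value in the window in replicate 1 (horizontal axis) and replicate 2 (vertical axis, both in the peak caller's units) for the 61 lipid genes with a peak in both. ech-1.2, fat-1 and lipl-2 stand apart at the upper right, and 54 points lie above the dotted line of equal values.

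Summits were spread over the whole window. The 250 bp downstream of the 5' end held the highest peak of 12 of the 80 lipid genes, against 12.7% of those of all genes, and the stretch from −1750 to −1500 bp held 11 (13.8%), against 9.78%. Highest peaks lay in coding exons for 21 of 80 lipid genes (26.2%, against 35.6% of all genes) and outside protein-coding genes for 42 (52.5%, against 41.4%). The gene's own 5' end was the nearest one for 54 of 80 (67.5%, against 69.2%). The sequence of 6 of the 80 highest peaks matched another place in the genome at 90% identity or more over at least 100 bp: acs-12, acs-15, acdh-3, lipl-1, lipl-8 and mdt-15. Those of fat-1, fat-2, fat-6, fat-7, lipl-2 and ech-1.2 did not. The search was not made for the peaks of all genes, so this count has no share to stand beside it.

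**Figure D4:**
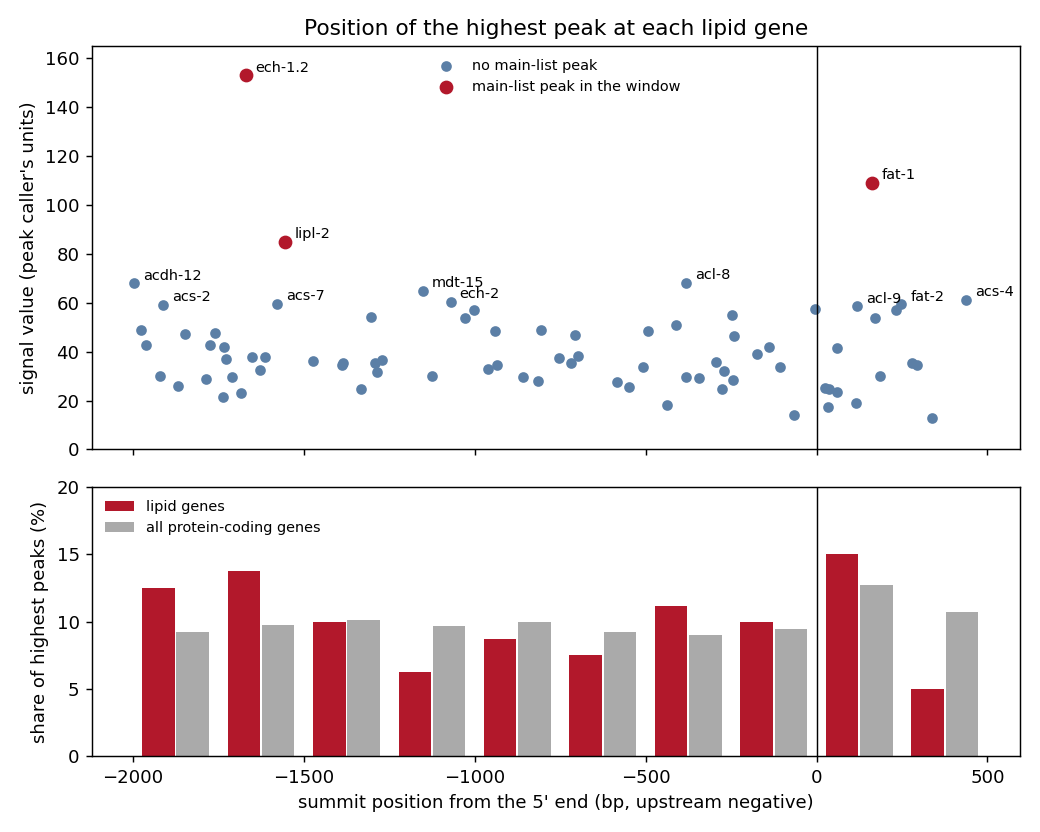
Upper panel: signal value of the highest peak of each lipid gene (vertical axis, peak caller's units) against its summit position (bp from the 5' end). Lower panel: share of highest peaks per 250 bp for lipid genes and for all protein-coding genes, where the tallest bars of both are those of the 250 bp after the 5' end.

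More lipid genes had a main-list peak inside the gene, past the window, than in the window. These were 6 of 89 (6.74%), against 566 of the 18796 genes long enough to have such a stretch (3.01%): fat-1, elo-5, acs-1, acs-20, acdh-1 and lipl-4. The stretch itself had a median length of 2109 bp in the lipid genes and 1651 bp in all genes. Without the peaks of the same 3.5 Mb of chromosome IV, which hold fat-1 and acs-20, 4 of 89 remained (4.49%, against 2.60%). The genes of that stretch again stayed in both totals. acs-1, which acts on branched-chain fatty acids, had 81.1 in an intron at +587 bp, over the non-coding RNA gene F46E10.17, with 36.9 in replicate 1 and 39.9 in replicate 2. acs-20, a homologue of mammalian fatty acid transport proteins, had 74.0 at +1770 bp, 77.6 at +5050 bp and 58.3 at +6352 bp. Replicate 1 had 32.2, 42.1 and 43.5 at these places and replicate 2 had 40.7, 33.6 and 19.7, and the last 2 were in the own list of replicate 1. The 5' end of dpm-3 was nearest to the summits at +5050 and +6352 bp, at 2069 and 767 bp. The gene's own 5' end was nearest at the acs-20 peak of +1770 bp and at those of fat-1, elo-5 and acs-1. lipl-4, the gene of a lysosomal lipase, had 76.7 at +1717 bp over a tRNA gene, with no peak there in either replicate's ranked list. The summit lay in an untranslated part of lipl-4, and the 5' end of twk-10 was nearest, at 452 bp. The sequence of that peak matched 3 other places in the genome at 90% identity or more over at least 100 bp. acdh-1, an acyl-CoA dehydrogenase gene of the propionate shunt, had 60.7 at +1840 bp, with 37.9 in replicate 1 and 22.4 in replicate 2. That summit lay in an untranslated part of acdh-1, and the 5' end of C55B7.3 was nearest, at 706 bp. elo-5, an elongase gene of branched-chain fatty acid synthesis, had a pair of adjoining peaks of low signal, 33.1 and 24.8, at +1985 and +1752 bp, both with the highest score of 1000. The highest overlapping replicate peak had the same value for both, 12.6 in replicate 1 and 24.2 in replicate 2. These are therefore not separate readings of the 2 peaks. The conservative list lacked both elo-5 peaks, the acdh-1 peak and the acs-20 peak at +6352 bp. It alone added a peak of 85.7 in a coding exon of acl-13.

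The letters under the summits were then searched, because C/EBP proteins bind a palindromic octamer and the regulators of lipid genes have known sites. The octamers TTACACAA, TTACATAA, TTACGCAA, TTACGTAA, TTGCACAA, TTGCATAA, TTGCGCAA and TTGCGTAA were looked for on both strands in the 101 bp at the summit of each gene's highest peak. They were found at 2 of 80 lipid genes (2.50%; ech-3 and elo-1), against 2.30% of all genes' highest peaks and 1.76% of main-list peaks. The E-box CACGTG was at 2 (2.50%; acdh-2 and mdt-15), against 2.44%. The sterol response element TCACNCCAC was at none of the 80, against 0.276%. The highest peaks of fat-1, lipl-2 and ech-1.2 held none of these.

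TGATAA, the site of the GATA factors that govern intestinal genes, was more frequent at the lipid genes, a difference that was not put to a test. It was in the summit window of 17 of 80 lipid genes (21.2%), against 1275 of 17019 of all genes (7.49%) and 5.14% of main-list peaks. In flank windows centred 500 bp to either side of the summit the shares were 21.2% for lipid genes and 18.9% for all genes. Each flank window had 101 bp and a match in either counted. More sequence was therefore searched there than at the summit, and flank shares are not comparable with summit shares. By place, 12 of 42 summits outside protein-coding genes had it (28.6%, against 7.68% of all genes' summits there), 3 of 17 in introns or untranslated parts (17.6%, against 7.90%) and 2 of 21 in coding exons (9.52%, against 7.01%). The runs of 30 bases below are from the 6 lipid genes of highest signal with the site, leaving out acdh-5, in ce11 on the strand that reads TGATAA, which is in capitals:
acdh-12 (chrII:7197663-7197692, plus strand): tgttgattctgtTGATAAtaaggtccaact
acs-4 (chrIII:7168225-7168254, plus strand): aaaagacacagtTGATAAggtaggcaagtg
acs-19 (chrIII:3864452-3864481, minus strand): tgaggcactttaTGATAAgaaaatgcggta
ech-6 (chrIII:9752631-9752660, minus strand): agttttggatacTGATAAgtctgtcggagc
acs-1 (chrV:6524746-6524775, minus strand): atgagggtcaagTGATAAgcaagcttaata
lipl-5 (chrV:385274-385303, plus strand): aaaaaacaggatTGATAAaaactaacgaaa
The signal values of these peaks were 68.0 at acdh-12, 61.3 at acs-4, 57.6 at acs-19, 57.1 at ech-6, 55.0 at acs-1 and 48.3 at lipl-5. None of them was in the main list. acs-19 encodes an acetyl-CoA synthetase and ech-6 a mitochondrial enoyl-CoA hydratase. The lowest value with the site was 18.2 at acdh-11.

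Promoters, taken as 250 bp before to 50 bp after the 5' end, held TGATAA in 37 of 89 lipid genes (41.6%), against 30.3% of all genes. The E-box was in 8 (8.99%, against 5.84%), the octamers in 5 (5.62%, against 8.23%) and the sterol response element in 2, fat-5 and elo-5 (2.25%, against 0.541%). fat-1 and lipl-2 each had an E-box in the promoter, at −128 and −39 bp, away from their main-list peaks. The G+C content of the summit windows had a median of 41.6% for lipid genes and for all genes alike, and of 48.5% for the main list. These matches describe the letters and not occupancy by any factor.

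**Figure D5:**
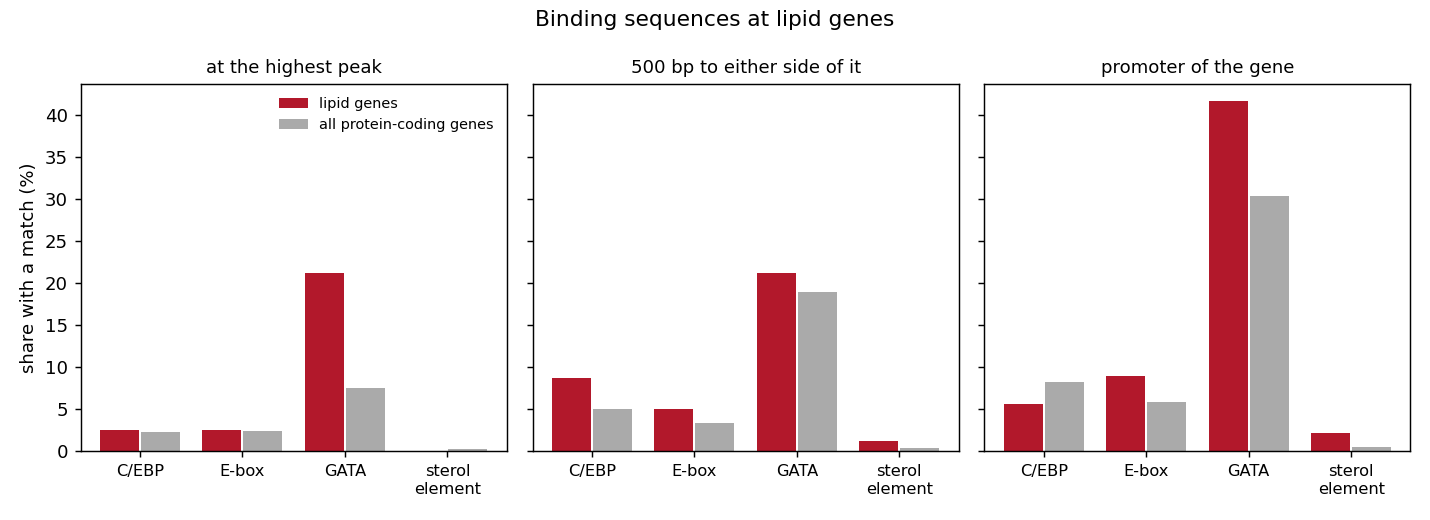
Share (%, vertical axis) of lipid genes and of all protein-coding genes with a match to each searched sequence in the 101 bp at the summit of the highest peak, in the flank windows 500 bp to either side and in the promoter. Each flank window has 101 bp and a match in either counted, so the panels cover unlike lengths of sequence. The GATA bars at the summit read 21.2% for lipid genes and 7.49% for all genes, and the C/EBP bars 2.50% and 2.30%.

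A list of 66 other lipid genes, chosen by symbol, covered mainly carnitine palmitoyltransferases, peroxisomal oxidases, lipid-binding proteins, vitellogenins and enzymes of sphingolipid, phospholipid and fat storage. It also held genes outside those classes, among them nhr-13, nhr-66, hlh-30, sams-1, let-767, art-1 and hpo-8. Of the 66 genes, 3 had a main-list peak in the window (4.55%, against 4.15% of all genes). They were lpin-1, the lipin phosphatidate phosphatase gene, whose highest peak had 72.4 at −1154 bp, the vitellogenin gene vit-6, whose highest peak had 72.3 at +322 bp, and the choline kinase gene ckb-3. The highest value anywhere in the window of lpin-1 was 34.0 in replicate 1 and 42.0 in replicate 2, and in that of vit-6 it was 29.3 in replicate 1 and 44.6 in replicate 2. The conservative list held vit-6 and hacd-1 (3.03%, against 3.26% of all genes), and the highest peak of hacd-1 had 63.6 at −442 bp. Neither replicate's own list held any of the 66, against 0.866% of all genes in replicate 1 and 1.31% in replicate 2. Over the 63 with a ranked peak the median highest signal was 38.4, against 36.4 for all genes. Inside the gene past the window, 7 of the 66 had a main-list peak (10.6%, against 3.01% of all genes with such a stretch). These were atgl-1, the adipose triglyceride lipase gene, cpt-1, pmt-2, ckb-2, lagr-1, vit-2 and vit-6. The median stretch searched was 3018 bp in that list, against 1651 bp in all genes.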

How the data were processed

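Per the labels, whole worms went into a sonicated chromatin preparation and an anti-GFP immunoprecipitation. Alignment was to ce11, per the file headers, with aligner and peak caller not given in the sources. Deposited peaks have the caller's signal value (normalization not stated), a reproducibility score up to 1000 and, in the authors' ranked lists, −log10 global IDR. Depth per sample is unknown.

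Peaks were read from the ranked list that held all 1419 main-list peaks among 112494, and the highest signal value per gene was kept. Thresholded lists cannot be rebuilt by score alone: 116 ranked peaks at or above 830 were not in the main list, none of them in a window of these genes. Genes came from Ensembl release 115 and bases from the RefSeq assembly of WBcel235; every peak end lay inside the chromosome lengths. Other genomic matches were found with BLAST+ 2.17.0, and tables made with Python 3.11.15, pandas 2.3.3, numpy 2.4.6, scipy 1.17.1 and matplotlib 3.10.9. The assignment of peaks to genes was tested on simulated peaks.

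The genes and lists were chosen with earlier results of these data known. Genes named are those with a peak of any thresholded list, the 10 of highest signal, the highest of each family, the single genes, fat-5, fat-6 and fat-7, those with no peak, and others where a count is listed. No test was run, since there is 1 group.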

Additional observations from a re-analysis of the deposited data

How the results depend on the processing

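From 1000 bp upstream to 200 bp downstream, 1 gene (fat-1) had a peak in each of the 4 thresholded lists, against 2.36% of all genes in the main list, and 0 of the 66 other lipid genes had a main-list peak; from 500 bp upstream to the 5' end these counts were all 0, against 1.19%. The median highest signal in those windows was 28.9, against 29.8 for all genes, and 26.9, against 24.5. Giving each peak to the nearest 5' end left 1 of the 89 genes per list, against 3.10% of all genes in the main list. Taking the 5' ends of any protein-coding transcript gave 5 genes in the conservative list, acl-13 and acs-1 added, against 3.63%. The relaxed IDR of 0.05 gave 16 lipid genes and 11 of the other list, against 12.4%. Summits inside genes gave 6 lipid genes, against 3.01% of all genes with such a stretch. The other list had 0 genes among main-list peaks above the median signal, against 2.34% of all genes. It also had 0 in either replicate alone, against 0.866% of all genes in replicate 1 and 1.31% in replicate 2. The median was 26.6 without replicate 1, against 24.9 for all genes, and 18.0 without replicate 2, against 17.4. Of 46 alternatives, 21 stayed within the limits set for a change and 25 moved. The limit was a fixed ratio for counts and, for the median, 6.06, the standard deviation of the 2 replicate medians. Smaller windows cannot raise a count, and values of single replicates were lower for all genes too. The tally is therefore no measure of robustness. The relaxed IDR, summits inside genes and the exclusion of small RNA genes or of the dense stretch of IV were added after the data had been seen. No paired analysis was possible because there is only 1 group. With 2 replicates, no control and no read counts, enrichment over background and its error cannot be given, and a gene without a listed peak is not shown to lack binding.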
